A study of Homo sapiens with 6 samples.

Results

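R-loops form when a nascent transcript pairs with its template and leaves the other DNA strand unpaired, and cells remove or prevent them with enzymes of several kinds. RNases H cut the RNA of the hybrid, helicases unwind it, topoisomerases relax the negative supercoiling behind the polymerase that favours it, and exonucleases degrade the transcript left behind after cleavage at the gene end. TDP-43, encoded by TARDBP, is an RNA-binding protein that prefers UG-rich RNA and is itself linked to R-loop control. Described here are 9 genes of these classes, chosen by gene name: the nuclease genes RNASEH1, RNASEH2A, RNASEH2B, RNASEH2C and XRN2, the helicase gene AQR, and TOP1, TOP3B and TDRD3 of the topoisomerase class. All 9 were found among the 26372 gene symbols measured, and all 9 passed the minimum mean of 1 FPKM required for testing (FPKM, fragments counted for a gene, scaled to its length and to the library's depth).

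The cells were SH-SY5Y, an established human neuroblastoma line, infected with a pLVX-U6 hairpin lentivirus. Puromycin selection lasted 2 weeks at 2 µg/mL, and 1 µg/mL was kept in the medium afterwards. Libraries shTDP43 replicates 1 to 3 carried a short hairpin RNA against TDP-43, and libraries shNC replicates 1 to 3 carried a control hairpin, so both groups share the vector, and the selection as far as the labels describe it. Poly(A) RNA was sequenced from 3 libraries of each group, and neither separate infections nor separate cultures are stated for the replicates, so the p-values reflect differences among these 6 libraries that may be purely technical. Only 1 TDP-43 hairpin is described, with no rescue, and it is not stated whether the cells were a pool or a clone, so an effect of TDP-43 cannot be told apart from other effects of the hairpin or of the selected cells. In such bulk RNA, fewer cells of a kind and less RNA per cell cannot be told apart.

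TARDBP had 36.0, 33.1 and 34.8 FPKM in shTDP43 libraries, against 56.1, 56.2 and 56.6 FPKM in shNC libraries. Each shTDP43 library lay below each shNC library, at 61.5% of the shNC mean (log2 fold change -0.69, SE 0.03; limma adjusted p = 2.84e-06; exact two-sided permutation p = 0.1, the smallest that 3 against 3 libraries can give). The upper quartile of FPKM was 10.5 to 10.7 in every library, and libraries correlated across genes at r = 0.993 to 0.995 within groups and 0.980 to 0.982 between groups. The small nucleolar RNA SNORD3A was at 8551 FPKM in shTDP43 replicate 3 and 11541 FPKM in shNC replicate 1, against at least 137209 FPKM in the other libraries. Among markers of SH-SY5Y cells, the noradrenergic list was expressed in both groups (summed 2062 to 2122 FPKM in shTDP43 and 2102 to 2118 FPKM in shNC; 6 of 11 tested markers higher and 4 lower), while TH, tyrosine hydroxylase, was near 0, at 0.0647 to 0.207 FPKM in shTDP43 and 0 to 0.0763 FPKM in shNC. Of 9 tested mesenchymal markers, 8 were lower and 1 was higher, and 5 were lower where a mean of 5 FPKM was required. Their summed levels were 445 to 459 FPKM in shTDP43 and 504 to 513 FPKM in shNC. Sums hide larger shifts of single markers in both lists. The median mesenchymal log2 fold change was -0.70, with COL3A1 at 11.7% of the shNC mean and the higher marker, TWIST1, at 145%. In the noradrenergic list CHGB was at 33.6% and CHGA at 175% of the shNC mean. Markers of blood, endothelium and epithelium summed to 3.24 to 4.27 FPKM in shTDP43 and 4.46 to 5.93 FPKM in shNC, where 2 of 13 were tested and 1 was lower, and CD3E was at 0 in all 6 libraries. That count was 0 without shNC replicate 2 or with a minimum mean of 5 FPKM, and 2 with no filter. These marker counts use the rule given below (limma adjusted p under 0.05), by which 18.5% of all tested genes were higher and 19.6% lower. The part of these marker shifts in the results below was not tested.

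Of the 9 genes, TOP1, RNASEH2B and AQR were higher in shTDP43 libraries and none was lower (limma with Benjamini-Hochberg adjustment over all 13263 tested genes, adjusted p under 0.05). Among all tested genes 18.5% were higher and 19.6% were lower by the same rule, 38.1% passed in either direction, and among the 6968 tested genes whose level lay in the range of these 9 genes 23.4% were higher and 19.0% lower. The 33.3% of these genes called higher rests on 3 genes, so nothing is read from it about the 9 as a set. At an unadjusted p under 0.05 in limma the count was 4 higher and 0 lower, against 23.6% higher and 24.2% lower of all tested genes. The median log2 fold change of the 9 genes was 0.06, against 0.0012 over all tested genes. The groups did not overlap in 4 of the 9 genes, each time with shTDP43 above, against 25.3% of all tested genes with shTDP43 above, 25.4% below and 50.7% in either direction. All of these changes were small, since the largest was 1.26-fold.

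**Figure D1:**
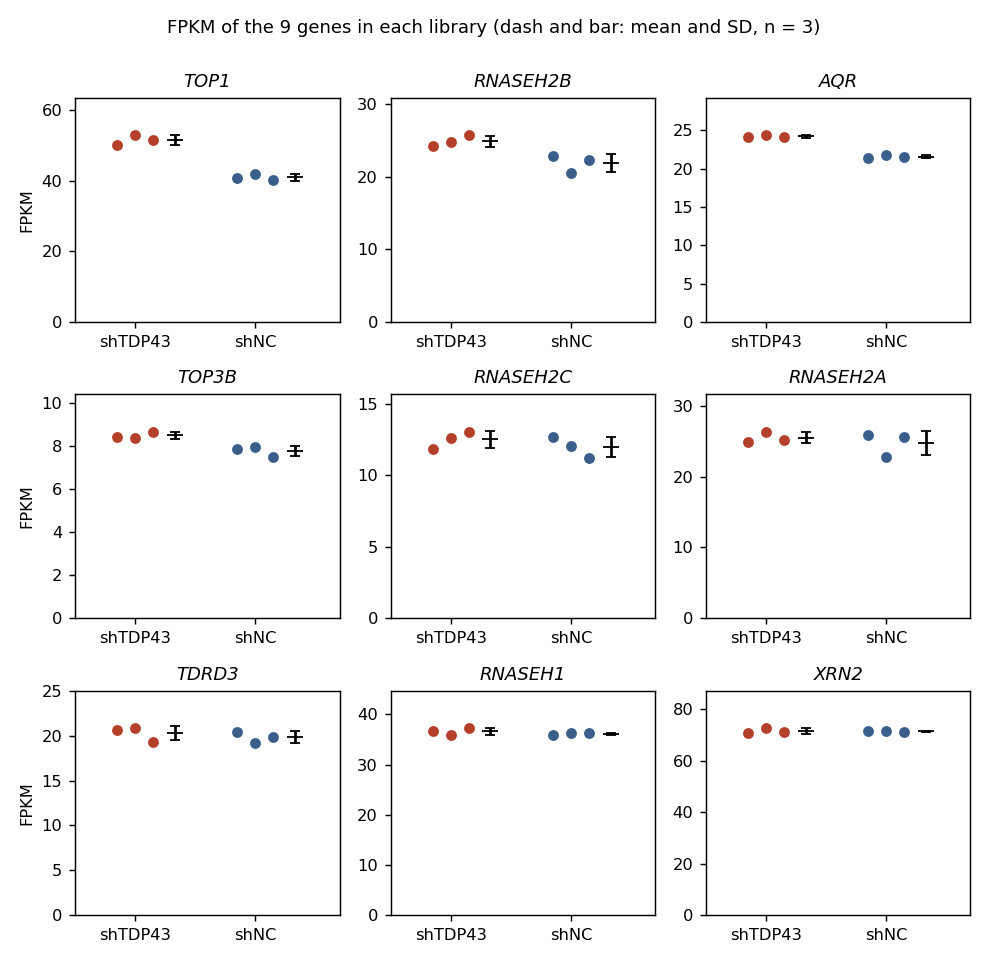
FPKM (vertical axes, from 0) of each of the 9 genes in the 3 shTDP43 libraries (red, left) and the 3 shNC libraries (blue, right), with a dash and bar for the mean and SD of each group. TOP1 shows the widest gap, RNASEH2B, AQR and TOP3B also have every shTDP43 library above every shNC library, and the other 5 genes overlap.

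The topoisomerase gene TOP1 (GRCh38 chromosome 20, 41028822 to 41124487, plus strand) changed most. Its product relaxes supercoiled DNA by cutting and rejoining a DNA strand while the helix turns around the uncut strand. TOP1 had 49.99, 52.9 and 51.5 FPKM in shTDP43 libraries, against 40.8, 42.0 and 40.1 FPKM in shNC libraries. The lowest shTDP43 library stood well above the highest shNC library. TOP1 averaged 51.5 ± 1.45 FPKM in shTDP43 and 40.9 ± 0.940 FPKM in shNC (SD, n = 3 each), so that TOP1 rose to 126% of the shNC level (log2 fold change 0.32, SE 0.03, 95% interval 0.25 to 0.39; limma adjusted p = 0.000114). Ranked by signed log2 fold change, TOP1 lay above 96.0% of all tested genes, a share that includes the genes that fell. The adjusted p ran from 9.7e-05 to 0.00548 over 15 alternative settings, and TOP1 passed in all 15. The pseudogene copies TOP1P1 and TOP1P2 had at most 0.140 FPKM in any library.

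AQR (chromosome 15, 34851782 to 34969742, minus strand) encodes aquarius, an RNA and DNA helicase of the spliceosome whose loss leads to R-loop accumulation. It had 24.1, 24.4 and 24.2 FPKM in shTDP43 libraries, against 21.4, 21.8 and 21.5 FPKM in shNC libraries. The libraries of each group lay within 0.33 FPKM of one another, while the groups were 2.64 FPKM apart, and no library overlapped. AQR rose to 112% of the shNC level (log2 fold change 0.16, SE 0.03, 95% interval 0.10 to 0.22; limma adjusted p = 0.0023), and it passed in all 15 alternatives, with adjusted p up to 0.0297.

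RNASEH2B (chromosome 13, 50909678 to 50970460, plus strand) encodes an accessory subunit of RNase H2, the enzyme that removes RNA from hybrids and ribonucleotides misplaced in DNA. It had 24.25, 24.7 and 25.7 FPKM in shTDP43 libraries, against 22.8, 20.5 and 22.3 FPKM in shNC libraries. The groups did not overlap, but shNC replicate 2 stood apart below the other shNC libraries. RNASEH2B rose to 114% of the shNC level (log2 fold change 0.18, SE 0.04, 95% interval 0.08 to 0.28; limma adjusted p = 0.0134). Without shNC replicate 2 the log2 fold change was 0.14, and over the 15 alternatives it passed each time with adjusted p between 0.0117 and 0.047.

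**Figure D2:**
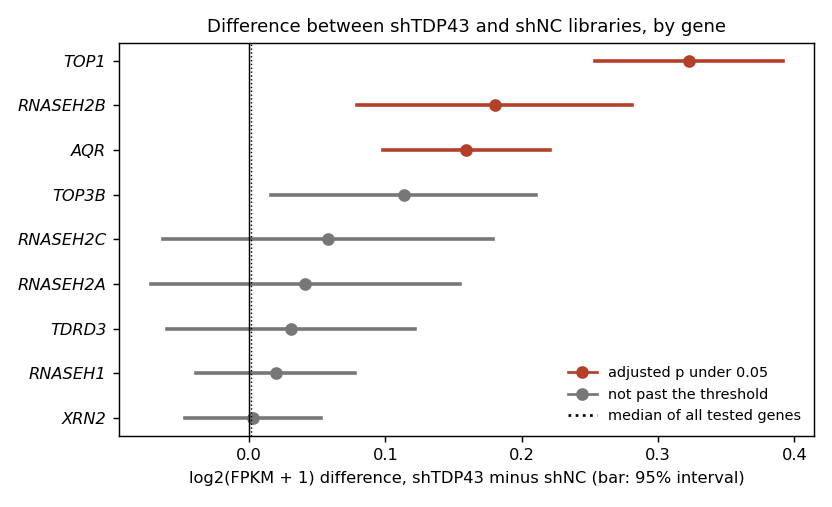
Difference in mean log2(FPKM + 1), shTDP43 minus shNC (horizontal axis), for each of the 9 genes, with its 95% interval from limma as a bar and the median of all tested genes as a dotted line. TOP1, RNASEH2B and AQR (red) passed the threshold, TOP3B at 0.11 has an interval above 0 without passing after adjustment, and the intervals of the other 5 genes span 0.

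The other subunits of RNase H2 did not pass the test. RNASEH2A (chromosome 19, 12806584 to 12813640), which encodes the catalytic subunit, had 24.9, 26.3 and 25.1 FPKM in shTDP43 libraries, against 25.9, 22.8 and 25.5 FPKM in shNC libraries. The groups overlapped, at a log2 fold change of 0.04 whose 95% interval ran from -0.07 to 0.15 (limma adjusted p = 0.547). RNASEH2C (chromosome 11, 65717673 to 65720798), the gene of the other accessory subunit, had 11.9, 12.6 and 13.1 FPKM in shTDP43 libraries, against 12.7, 12.1 and 11.2 FPKM in shNC libraries. Here too the groups overlapped, and the log2 fold change was 0.06, with a 95% interval of -0.06 to 0.18 (limma adjusted p = 0.418).

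FPKM is scaled to gene length, so the subunit levels are set beside one another, but the gene lengths used are not stated. RNASEH2A and RNASEH2C also share exonic bases with other transcripts, as given below, so levels across genes are approximate. RNASEH2A and RNASEH2B messages were at similar levels and RNASEH2C was the lowest of the complex in every library. The ratio of RNASEH2B to RNASEH2A FPKM was 0.974, 0.938 and 1.02 in shTDP43 libraries, against 0.881, 0.899 and 0.875 in shNC libraries. All shTDP43 ratios lay above all shNC ratios (exact two-sided permutation p = 0.1, the smallest this design allows). The ratio of RNASEH2B to RNASEH2C overlapped between the groups, at 1.99 ± 0.0445 in shTDP43 and 1.83 ± 0.146 in shNC (SD, n = 3 each; exact permutation p = 0.3), as did that of RNASEH2A to RNASEH2C, at 2.04 ± 0.0987 in shTDP43 and 2.07 ± 0.193 in shNC (exact permutation p = 1). Of 18 proliferation genes, a class with which RNASEH2A is often expressed, 4 were higher and 6 lower (22.2% and 33.3%, against 18.5% and 19.6% of all tested genes), with a median log2 fold change of -0.02. Of these, 2 were higher without shTDP43 replicate 3 or without shNC replicate 2, and 2 higher and 3 lower without both libraries low in SNORD3A.

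RNASEH1 (chromosome 2, 3531813 to 3558333), whose product cuts the RNA of longer hybrids in the nucleus and in mitochondria, had 36.7, 35.9 and 37.3 FPKM in shTDP43 libraries, against 35.9, 36.2 and 36.2 FPKM in shNC libraries. The shNC values fell inside the shTDP43 range but for replicate 1, which was just below it. The log2 fold change was 0.02, with a 95% interval of -0.04 to 0.08 (limma adjusted p = 0.585), so a rise of the size seen for AQR lay outside the interval. XRN2 (chromosome 20, 21303331 to 21389825), the nuclear 5′ to 3′ exoribonuclease gene of transcription termination, was the most abundant of the 9 messages. It had 71.0, 72.8 and 71.0 FPKM in shTDP43 libraries, against 71.4, 71.7 and 71.2 FPKM in shNC libraries. All 6 libraries lay close together, and the log2 fold change was 0.0027, with a 95% interval of -0.05 to 0.05 (limma adjusted p = 0.936). TOP1 and XRN2 lie on the same chromosome, and only TOP1 passed the test.

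TOP3B (chromosome 22, 21957025 to 21982787) encodes a topoisomerase that acts on both DNA and RNA and works with the scaffold protein TDRD3. It had 8.42, 8.38 and 8.67 FPKM in shTDP43 libraries, against 7.88, 7.95 and 7.50 FPKM in shNC libraries, and was the least abundant of the 9 messages. The groups did not overlap and TOP3B stood at 109% of the shNC level, but it did not pass after adjustment (log2 fold change 0.11, SE 0.04, 95% interval 0.02 to 0.21; unadjusted p = 0.0279; limma adjusted p = 0.0671). TDRD3 (chromosome 13, 60395533 to 60573879), whose Tudor domain binds methylated arginine on histones and on RNA polymerase II, had 20.6, 20.9 and 19.4 FPKM in shTDP43 libraries, against 20.5, 19.2 and 19.9 FPKM in shNC libraries. The groups overlapped, at a log2 fold change of 0.03 whose 95% interval ran from -0.06 to 0.12 (limma adjusted p = 0.576). The ratio of TOP3B to TDRD3 FPKM was 0.419 ± 0.0251 in shTDP43 and 0.392 ± 0.0196 in shNC (SD, n = 3 each) and overlapped between the groups (exact permutation p = 0.3).

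In order of mean level over the 6 libraries, XRN2 was followed by TOP1, RNASEH1, RNASEH2A, RNASEH2B, AQR, TDRD3, RNASEH2C and TOP3B, given the unstated gene lengths behind FPKM. The neighbours RNASEH2A, RNASEH2B and AQR, at 25.1, 23.4 and 22.9 FPKM, overlapped in their libraries, while the libraries of every other pair of neighbours in this order did not overlap. All 9 messages were above the level of 41.4% of tested genes, and XRN2 was above 93.9% of them.

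**Figure D3:**
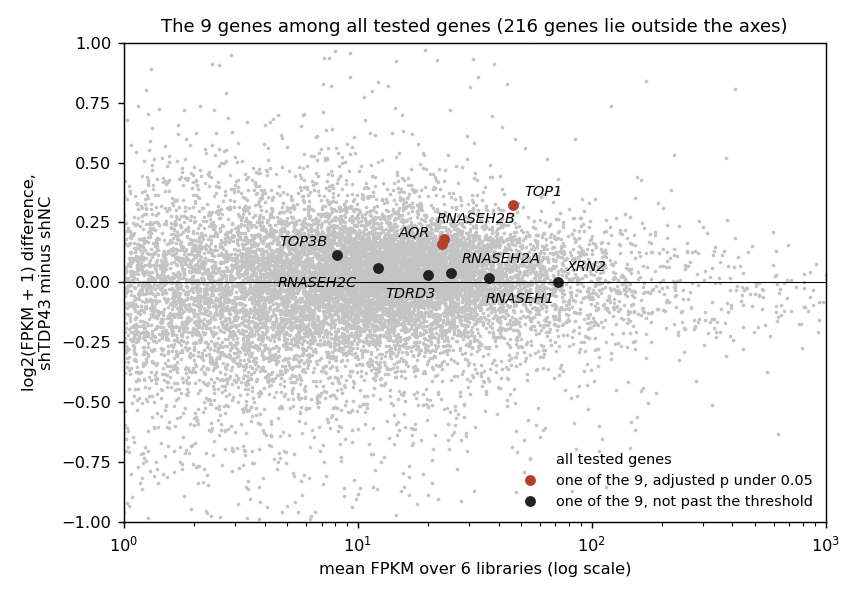
Difference in mean log2(FPKM + 1), shTDP43 minus shNC (vertical axis), against mean FPKM over the 6 libraries on a log axis, with each tested gene as a grey dot and the 9 genes named. TOP1 sits highest of the 9 genes, at 0.32, which is above 96.0% of all tested genes. On this plot 216 genes fall outside the axes.

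Some of the 9 genes share sequence with other transcripts, and although the library kit keeps strand, whether the counting used it is not stated in the sources at hand. In the GENCODE annotation of GRCh38, RNASEH2C exons share 1439 bases with KAT5 on the opposite strand, and TOP3B exons share 6024 bases with the antisense RNA AC245452.1. KAT5 had 10.8, 11.5 and 10.1 FPKM in shTDP43 libraries and 9.63, 10.4 and 8.67 FPKM in shNC libraries. Its groups overlapped (log2 fold change 0.16, limma adjusted p = 0.107). RNASEH2A shares 1123 exonic bases with THSD8 on its own strand. RNASEH1 shares 125 bases with RNASEH1-AS1, which had 17.9, 20.2 and 15.6 FPKM in shTDP43 libraries and 19.8, 16.4 and 17.4 FPKM in shNC libraries, so the groups overlapped. RNASEH2B shares 282 bases with RNASEH2B-AS1, which had 0 to 0.412 FPKM in shTDP43 and 0.238 to 0.520 FPKM in shNC, and 21 bases with GUCY1B2, which was at 0 in all 6 libraries. XRN2 shares 170 bases with the antisense RNA AL117332.1, and RNASEH1 another 94 with AC108488.2 on its own strand. The values of these genes are uncertain to that extent. TOP1 shares 90 exonic bases with its antisense neighbour PLCG1-AS1, which was below 1.31 FPKM in every library.

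Chromosomal neighbours were set beside the 3 higher genes. For TOP1, the 10 nearest tested genes, 5 on each side, had log2 fold changes between -0.29 and 0.21 with a median of 0.05, and 2 were higher and 1 lower, so that TOP1 at 0.32 was above all 10. The highest of them, at 0.21, was the overlapping antisense gene PLCG1-AS1, which did not pass (limma adjusted p = 0.171). The neighbours of AQR had a median of -0.0049, with 2 higher and 3 lower, and those of RNASEH2B a median of -0.07, with 2 higher and 2 lower. Of the other tested genes on chromosome 20, 20.9% were higher, against 15.5% on chromosome 15 and 21.5% on chromosome 13.

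**Figure D4:**
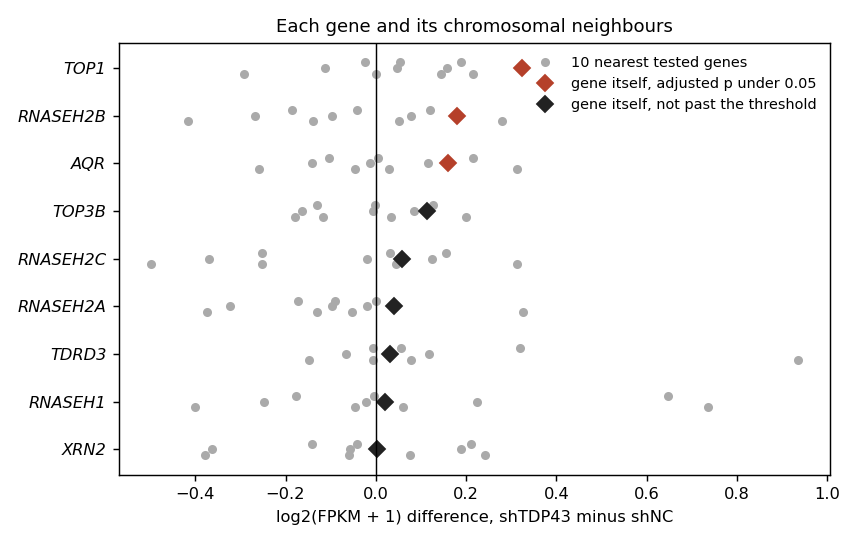
Difference in mean log2(FPKM + 1), shTDP43 minus shNC (horizontal axis), of each of the 9 genes (diamonds, red where past the threshold) and of the 10 nearest tested genes on its chromosome (grey dots). TOP1 lies to the right of all its neighbours, whereas RNASEH2B and AQR lie within the range of theirs.

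TDP-43 binds UG repeats in RNA, so the stretch TGTGTG was searched on the sense strand of the principal GENCODE transcript of each gene, in DNA letters. Each match was extended for as long as T and G went on alternating, a leading G or trailing T included, and the stretch is called a run. TOP1 had 2 such runs, AQR 2, and RNASEH2B, RNASEH2A, RNASEH1 and TOP3B 1 each, while RNASEH2C, TDRD3 and XRN2 had none. All 3 genes that were higher held a run, as did 3 of the 6 that did not pass, against 68.3% of 11597 tested genes with such a transcript. By call, 72.0% of higher, 68.5% of lower and 67.1% of uncalled genes held a run, with median transcript lengths of 3788, 3201 and 3045 bases. The TOP1 run in the 3′ UTR was 9 bases long by this rule, and 13.3% of the 11597 genes held a run of at least that length. The runs of the 3 higher genes are printed here with the repeat in capitals, since these are the genes whose level changed. A match describes these letters and is no evidence of binding, and introns, where TDP-43 often binds, were not searched.
TOP1 3′ UTR, transcript bases 3622 to 3630: ttgttagtttaGTGTGTGTGcagagtccat
TOP1 coding sequence, transcript bases 1607 to 1612: cggctgaaaaaaTGTGTGgacaagatccgg
AQR coding sequence, transcript bases 2267 to 2272: atgaatactgatTGTGTGgtacctgactgg
AQR 3′ UTR, transcript bases 5499 to 5504: gaacttaactccTGTGTGcagggtagaatt
RNASEH2B 3′ UTR, transcript bases 1615 to 1620: tcaataaactgaTGTGTGacaatgtta

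The 250 bases before the RefSeq start of the 3 higher genes are printed with those of XRN2, whose level differed least, to set them against a gene that did not pass the test (GRCh38.p14, from RefSeq, 5′ to 3′ on the strand of the gene). Capitals mark the motifs searched on both strands: the GC box GGGCGG, the CCAAT box CCAAT, the cyclic AMP response element core TGACG and the TATA box TATAAA, none of which contains another.
TOP1, chr20:41028572-41028821, plus strand: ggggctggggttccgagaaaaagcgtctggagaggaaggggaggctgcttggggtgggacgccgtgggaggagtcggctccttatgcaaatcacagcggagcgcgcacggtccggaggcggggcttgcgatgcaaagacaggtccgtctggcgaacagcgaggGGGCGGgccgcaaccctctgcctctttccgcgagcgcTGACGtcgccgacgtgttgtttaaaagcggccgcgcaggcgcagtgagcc
AQR, chr15:34969743-34969992, minus strand: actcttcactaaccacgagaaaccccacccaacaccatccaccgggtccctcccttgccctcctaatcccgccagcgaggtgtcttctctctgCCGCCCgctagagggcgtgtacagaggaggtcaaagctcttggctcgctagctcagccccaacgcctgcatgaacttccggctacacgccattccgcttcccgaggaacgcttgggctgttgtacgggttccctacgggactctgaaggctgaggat
RNASEH2B, chr13:50909428-50909677, plus strand: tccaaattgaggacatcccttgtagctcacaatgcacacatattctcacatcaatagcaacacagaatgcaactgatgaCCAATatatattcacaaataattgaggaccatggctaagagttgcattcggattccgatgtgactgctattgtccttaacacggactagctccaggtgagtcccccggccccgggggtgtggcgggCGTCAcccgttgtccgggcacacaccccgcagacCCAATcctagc
XRN2, chr20:21303081-21303330, plus strand: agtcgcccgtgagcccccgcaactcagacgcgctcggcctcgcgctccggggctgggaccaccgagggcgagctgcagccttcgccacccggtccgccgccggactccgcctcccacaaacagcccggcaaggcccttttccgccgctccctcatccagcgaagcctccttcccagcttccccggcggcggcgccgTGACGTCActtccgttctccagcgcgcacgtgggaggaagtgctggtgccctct
TOP1 held 1 GC box and 1 CRE core, AQR held 1 GC box, RNASEH2B held 2 CCAAT boxes and 1 CRE core, and XRN2 held 2 overlapping CRE cores, and no motif was common to the 3 higher genes. Over all 9 genes, 3 promoters held a GC box, against 67.4% of 9778 tested genes with a promoter in the RefSeq table. A CCAAT box was found in 3 of 9, against 35.6%, a CRE core in 4 of 9, against 30.4%, and a TATA box in 0 of 9, against 5.03%. For the 9 genes the listed start nearest the RefSeq gene bound was used, and for all tested genes the first listed start. These shares therefore rest on starts chosen by different rules. No factor was measured at these promoters.

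Of 67 other genes of the R-loop pathway in 8 lists, 66 were tested, and 24 were higher and 4 lower in shTDP43. That is 36.4% higher against 18.5% of all tested genes, and 6.06% lower against 19.6%. Among the 6968 tested genes in the range of levels given earlier, 23.4% were higher and 19.0% lower. Some list genes lay outside that range, and no share matched to the levels of the lists was computed. The lists were chosen with earlier results of these data known. The median log2 fold change of the 66 tested genes was 0.08. The count higher was 16 to 24 over the alternatives, with 16 when both libraries low in SNORD3A were left out. DHX9, at 0.35, and THOC1, at 0.39, exceeded TOP1 on the log2 scale. By list, the median log2 fold change was 0.10 for the other helicases, 0.0082 for the other topoisomerases, 0.09 for the other nucleases and 0.09 for the THO complex. It was 0.10 for the partners of AQR, 0.05 for those of XRN2, -0.07 for those of TOP3B and TDRD3 and -0.03 for the other Aicardi-Goutières genes.

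Among other helicases that act on hybrids, 10 of 18 were higher and 0 lower, against 18.5% and 19.6% of all tested genes. DHX9, a helicase that unwinds RNA-DNA hybrids, had 116, 115 and 116 FPKM in shTDP43 libraries, against 91.7, 89.9 and 89.9 FPKM in shNC libraries. The groups were far apart, at 128% of the shNC level (limma adjusted p = 9.79e-06). DDX39B, an mRNA export helicase, rose to 117% and RTEL1, a telomere and replication helicase, to 121% (limma adjusted p = 0.00351 and 0.033). The count was 6 without shTDP43 replicate 3, without shNC replicate 2 or without both libraries low in SNORD3A.

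Among other topoisomerases and enzymes that repair trapped ones, 3 of 11 were higher and 1 lower, against 18.5% and 19.6% of all tested genes. TOP2A, the topoisomerase of dividing cells, had 105, 106 and 105 FPKM in shTDP43 libraries, against 125, 126 and 125 FPKM in shNC libraries. It was the only one of these to fall, to 84.1% of the shNC level (log2 fold change -0.25; limma adjusted p = 4.7e-05), opposite in direction to TOP1. TOP2A is also in the proliferation list above, where it was already counted among the 6 lower genes. The ratio of TOP1 to TOP2A was 0.487 ± 0.011 in shTDP43 and 0.326 ± 0.0069 in shNC (SD, n = 3 each). TOP1MT, the mitochondrial relative of TOP1, rose to 114% and TDP2, which removes trapped topoisomerase 2 from DNA, rose to 114% (limma adjusted p = 0.031 and 0.0197). The count higher was 1 without shTDP43 replicate 2, without shNC replicate 3, without both libraries low in SNORD3A or with no variance trend.

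Among other nucleases and the single-strand binding protein RPA, 5 of 12 were higher and 1 lower, against 18.5% and 19.6% of all tested genes. The flap nuclease gene FEN1 rose to 113% (limma adjusted p = 0.00214) and DNA2, a nuclease and helicase, to 113% (limma adjusted p = 0.0448). The member that fell was RPA3, the small subunit of RPA, which stimulates RNase H1, with 21.9, 22.0 and 20.6 FPKM in shTDP43 libraries and 26.7, 26.6 and 26.75 FPKM in shNC libraries (80.6% of the shNC level; limma adjusted p = 0.000282). Of the genes that, like those of RNase H2, are mutated in Aicardi-Goutières syndrome, 4 of 5 were tested and none passed, although 1 was lower without shTDP43 replicate 3. Of all tested genes 38.1% passed in either direction.

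Among direct partners of the 9 gene products, ISY1, a component of the intron-binding complex with aquarius, rose to 118% (limma adjusted p = 0.0288), while the other 3 partners of that complex did not pass. That is 1 of 4 higher, against 18.5% of all tested genes. ISY1 did not pass without shTDP43 replicate 1, shTDP43 replicate 3 or shNC replicate 3, or without a filter on low values. FXR1, a relative of the fragile X protein that binds TDRD3 and TOP3B, fell to 83.8% of the shNC level, with 23.8, 24.6 and 24.2 FPKM in shTDP43 libraries and 29.6, 28.3 and 28.6 FPKM in shNC libraries (limma adjusted p = 0.000434), and FMR1 and FXR2 did not pass. So 1 of these 3 was lower, against 19.6% of all tested genes. With so few partners per list, nothing is read from these counts about the partners as sets. For XRN2, 2 of 7 partners and related factors were higher, against 18.5% of all tested genes. These were PCF11, a termination factor at the polyadenylation site, at 119% (limma adjusted p = 0.00127) and CDKN2AIP, which binds XRN2, at 114% (limma adjusted p = 0.0464). The count was 1 under each setting that left out a library except without shTDP43 replicate 1. It was also 1 with no filter, no variance trend or a replicate block.

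In the THO complex with ALYREF, which packages nascent RNA for export and so limits R-loops, 3 of 7 were higher and 1 was lower. Of all tested genes 18.5% were higher and 19.6% lower. THOC1 rose to 133%, THOC5 to 123% and ALYREF to 119% of the shNC level (limma adjusted p = 0.000632, 0.000254 and 0.000559). THOC7, named here after its value was seen, fell to 92.0% (limma adjusted p = 0.0281). It no longer passed without shTDP43 replicate 2 or 3, shNC replicate 2 or 3 or both libraries low in SNORD3A. Nor did it pass with no variance trend or with a replicate block.

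**Figure D5:**
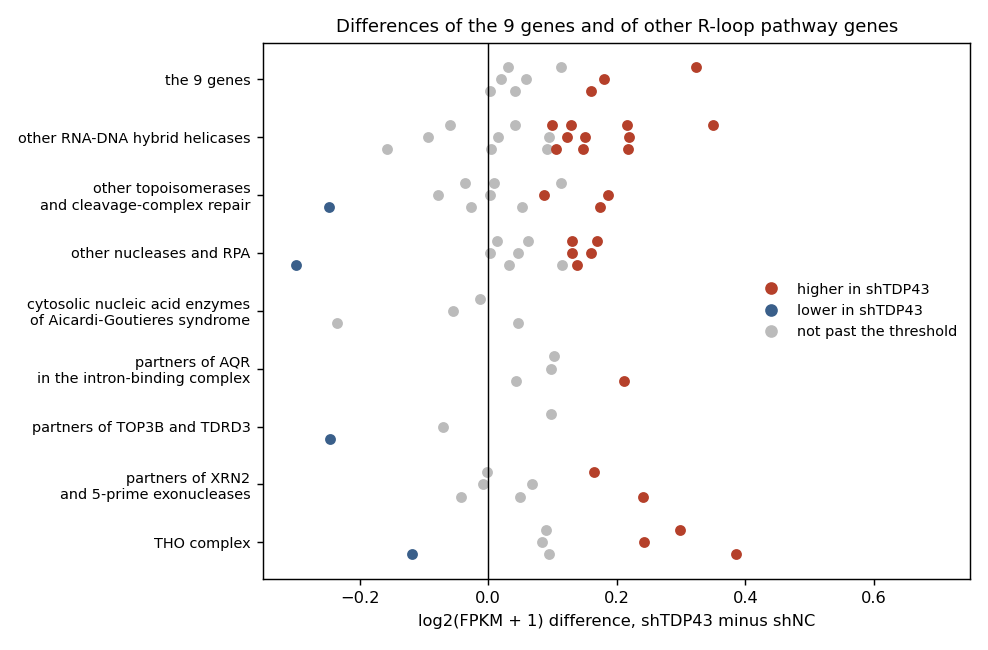
Difference in mean log2(FPKM + 1), shTDP43 minus shNC (horizontal axis), of the 9 genes (top row) and of the tested genes in 8 other lists of the R-loop pathway, with red for higher, blue for lower and grey for not past the threshold. Red dots outnumber blue ones, 24 to 4 over the 8 lists, which were chosen with earlier results of these data known. Of all tested genes 18.5% were higher and 19.6% lower. Of tested genes in the range of levels of the 9 genes, 23.4% were higher and 19.0% lower. TOP1 is the rightmost of the 9 genes.

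The pattern of TOP1 over the 6 libraries was matched most closely by HP1BP3, a chromatin protein gene (Pearson r = 0.9997), SQLE, an enzyme gene of cholesterol synthesis (r = 0.9992), and CCNJ, a cyclin gene (r = 0.9981), among the 9584 candidate genes that averaged 5 FPKM or more. HP1BP3 had 78.8, 82.6 and 80.6 FPKM in shTDP43 libraries, against 65.4, 67.5 and 64.8 FPKM in shNC libraries. These correlations describe 6 libraries in 2 separate groups, and 98 genes reached r above 0.99.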

How the data were processed

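RNA from SH-SY5Y cells with a hairpin against TDP-43 (shTDP43, 3 libraries) or a control hairpin (shNC, 3 libraries) was measured from poly(A) RNA in directional libraries, per the labels' protocols. The authors deposited FPKM values per gene symbol, and per the submitters' processing notes the tools were TopHat2 2.1.0, SAMtools and Cuffdiff 2.2.1, with build hg38. The annotation, strand use, treatment of reads with several matches and scaling are not stated in the sources at hand, and the depth is unknown, so no counting intervals are given. Groups and replicate numbers came from the sample titles.

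Tests ran in limma 3.58.1 under R 4.3.3 on log2(FPKM + 1) (group as the only term, variance trend, two-sided, Benjamini-Hochberg adjustment over all tested genes, threshold 0.05). Testing required a mean of 1 FPKM or more (13263 of 26372). Percentages and folds are ratios of mean FPKM, and log2 fold changes on this scale understate changes of low genes. No pair of libraries was identical, with at most 0.0905% of tested genes equal in a pair. The 9 genes, the other lists and the rule for named genes (all 9 genes, up to 3 called genes with the largest change per list, and 3 genes most like TOP1) were chosen with earlier results of these data known. Locations and promoters came from RefSeq for GRCh38.p14, where all 9 symbols matched, and transcripts from GENCODE for GRCh38, the assembly hg38 names. Alternatives covered pseudocounts, filters, scaling, the variance trend, a replicate block and leaving out libraries.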

Additional observations from a re-analysis of the deposited data

How the results depend on the processing

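TOP1, RNASEH2B and AQR passed as higher under all 15 alternatives run, and no member passed as lower under any. TOP3B passed only with no variance trend (log2 fold change 0.11, limma adjusted p = 0.0466), with adjusted p up to 0.212 elsewhere. Leaving out 1 library at a time moved the log2 fold change of XRN2 between -0.0088 (without shTDP43 replicate 2) and 0.0087, and that of RNASEH2A between -0.014 (without shNC replicate 2) and 0.074, so neither has a stable direction. The ranges were 0.015 to 0.095 for RNASEH2C (lowest without shNC replicate 3), 0.0068 to 0.033 for RNASEH1 (lowest without shTDP43 replicate 3) and 0.0077 to 0.063 for TDRD3 (lowest without shNC replicate 2), and none of these passed in any setting. The median of the 9 genes ran from 0.053 to 0.095 in those settings, and was 0.084 without both libraries low in SNORD3A, a setting chosen after seeing the data. That setting called 1563 genes higher, against 2448 with all libraries; it tests fewer libraries. Pathway genes called higher numbered 17 to 20 and lower 3 to 4 when 1 library was left out.

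Replicate numbers are shared between the groups, but deviations of same-numbered libraries correlated at -0.07, 0.06 and 0.11. Of the shTDP43 libraries only replicate 2 correlated best with its own number. No pairing by number was visible, although 3 libraries per group are too few to exclude one. With a replicate block, 2152 genes were called higher and 2350 lower, and 3 of the 9 genes were higher, with a limma adjusted p of 0.00072 for TOP1. The block cannot change a log2 fold change in this balanced design. It left 1 of the XRN2 partners higher, in place of 2, and THOC7 did not pass. Depth is unknown, so a limit of detection cannot be given. Differences of low genes are the least certain.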
